A study of Trichosurus vulpecula with 6 samples.

Results

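The acute inflammation genes considered here are IL1B, IL6, IL1RN, PTGS2, S100A9, TNFAIP3, NFKBIA and SOCS3, 8 listed genes beside the 18068 genes that had assembled transcripts in the ear skin of brushtail possums (Trichosurus vulpecula). Of the 8 genes, 7 were found under their symbol in the possum RefSeq gene table (assembly mTriVul1.pri) and had transcripts in all 6 libraries. S100A9 was not matched by symbol or transcript name, so no value was set for it. The libraries were made from poly(A) RNA of ear punches from adult females, 3 with black fur (n = 3) and 3 with grey fur (n = 3). No treatment or genotype is given in the labels, and coat colour was the labelled contrast. The genes were chosen by their summed TPM in these same libraries, set beside the immediate early and dermal matrix levels, so their levels are given as a description, and nothing is read from their place in the fit across all genes.

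Acute inflammation in skin begins when resident cells sense damage or microbes and release interleukin 1, which acts through NF-κB in neighbouring cells to switch on further cytokines, prostaglandin synthesis and the recruitment of neutrophils. The same pathway switches on its own brakes: an interleukin 1 receptor antagonist that occupies the receptor, an inhibitor that holds NF-κB in the cytoplasm, a ubiquitin-editing enzyme that silences upstream signalling, and a suppressor of the STAT3 signal that interleukin 6 gives. These roles are known from human and mouse. A skin punch holds epidermis, dermis, vessels and resident leukocytes together, so fewer cells of a type and less RNA per cell cannot be told apart in these values.

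Levels are given in TPM, a unit that corrects for the length of a transcript and the depth of its library, and are summed over the transcripts of a gene. Sums over several fragments of a gene overstate its level, and TPM depends on the length that was assembled. A second scale was therefore set beside it after the data were seen. It is the mean coverage by assembled transcripts of a fixed set of exon bases of each gene, expressed on the TPM scale. It is called the fixed exon window below. Bases of the set that a library did not assemble count as 0 in it. The window therefore understates genes assembled only in part, such as IL1B and PTGS2 in grey replicate 2. Gaps to a library with a full transcript are widened by this. The libraries held 7.58, 8.51 and 6.47 aligned gigabases in black replicates 1, 2 and 3 and 4.17, 8.37 and 10.2 in grey replicates 1, 2 and 3. Of 12 keratinocyte markers listed, 5 were named in the RefSeq table and had transcripts, and 1 of the 5 had none in black replicate 1. DSG1, a desmosomal cadherin, was present in all libraries at 941 to 1645 TPM. Black replicate 1 also held skeletal muscle transcripts (MYL1 at 1262 TPM, against 1.26 to 2.56 TPM in the other 5 libraries), and of 8 erythroid markers 3 were named in the RefSeq table, with 0 of the 3 having a transcript.

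IL1B (chromosome 3, 401308416 to 401315830, minus strand) encodes interleukin 1β, the cytokine that starts much of the response. It had 5.43, 2.76 and 1.75 TPM in black replicates 1, 2 and 3, and 3.26, 0.351 and 14.4 TPM in grey replicates 1, 2 and 3. Grey replicate 3 held the highest level and grey replicate 2 the lowest, so the black libraries lay inside the range of the grey ones. IL1B was assembled as a single transcript of 6 exons in black replicate 3 and grey replicate 3, as 2 separate pieces in black replicates 1 and 2 and grey replicate 1, and as a piece of 320 nt in grey replicate 2. The level in grey replicate 2 rested on the equivalent of 3.86 reads of 120 bp, and that in grey replicate 3 on 1099 reads. On the fixed exon window the levels were 2.79, 1.46 and 1.74 TPM in black skin and 1.88, 0.0767 and 14.4 TPM in grey skin. The gap between grey replicate 3 and the next library was 2.65-fold by summed TPM and 5.16-fold on the fixed window.

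IL6 (chromosome 5, 15110446 to 15116110, plus strand) encodes interleukin 6, which signals through STAT3. It was at 1.13, 0.94 and 2.40 TPM in black skin and at 1.99, 0.945 and 4.53 TPM in grey skin. IL6 was assembled as a single transcript of 1184 to 1354 nt in all 6 libraries, and the fixed window gave the same order of libraries. Outside grey replicate 3 it rested on 42.2 to 87.4 reads per library, so the order among the other 5 libraries is loosely set. IL6 and IL1B did not share that order. By summed TPM IL6 was second highest in black replicate 3, where IL1B was second lowest.

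IL1RN (chromosome 3, 401696289 to 401702523, plus strand) encodes the receptor antagonist of interleukin 1. Its levels were 21.3, 25.0 and 29.7 TPM in black skin and 14.1, 18.6 and 46.6 TPM in grey skin. The 3 black libraries lay between grey replicates 1 and 2 below and grey replicate 3 above. The antagonist exceeded IL1B in every library, by 3.93-fold, 9.07-fold and 17.0-fold in black replicates 1 to 3 and by 4.32-fold, 52.9-fold and 3.24-fold in grey replicates 1 to 3. The fixed window put IL1RN at 21.6, 29.6 and 29.9 TPM in black skin and 14.9, 18.4 and 57.5 TPM in grey skin, and the ratio to IL1B was 3.99 in grey replicate 3 and 7.74 to 240.3 elsewhere. On both scales the ratio was lowest where IL1B was highest and highest where IL1B was lowest. IL1B is the divisor and varied more than IL1RN, so nothing is read from that order. The highest ratio, in grey replicate 2, rested on the equivalent of 3.86 reads of IL1B. Transcripts that began 87.4 to 88.1 kb before the RefSeq start made up 100% of IL1RN in black replicate 2 and in grey replicate 1, 29.8% in grey replicate 3 and 0% in the other 3 libraries, whose first exon lay 11.5 kb before that start. Whether the far exons belong to IL1RN or to a neighbouring gene joined to it in assembly was not tested.

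PTGS2 (chromosome 4, 82319221 to 82325136, minus strand) encodes cyclooxygenase 2, the inducible enzyme of prostaglandin synthesis. It was at 0.641, 1.16 and 0.688 TPM in black skin and at 1.41, 0.526 and 4.77 TPM in grey skin. A transcript of 10 exons and 3901 nt was assembled in grey replicate 3, whereas the longest piece in the other libraries was 388 to 1376 nt. Those pieces rested on 10.5, 25.7 and 26.3 reads in black skin and 7.93 and 14.9 reads in grey replicates 1 and 2, against 831 reads in grey replicate 3. On the fixed window PTGS2 was at 0.339, 0.425 and 0.364 TPM in black skin and at 0.664, 0.127 and 5.02 TPM in grey skin, which put grey replicate 3 at 7.55-fold the next library, against 3.39-fold by summed TPM.

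S100A8 (chromosome 4, 164169719 to 164170420, plus strand), the protein partner of S100A9 in calprotectin and a product of neutrophils and of stressed keratinocytes, was listed as a partner gene. It had 803, 197 and 567 TPM in black skin and 110, 151 and 7795 TPM in grey skin. Grey replicate 3 was 9.70-fold above the next library, the largest such gap among the 7 members and the 12 partner genes. S100A7, another epidermal S100 gene, was at 1490, 336 and 837 TPM in black skin and at 188, 591 and 1244 TPM in grey skin, so it peaked in black replicate 1. The ratio of S100A8 to S100A7 was 0.539, 0.587 and 0.678 in black skin and 0.586, 0.255 and 6.26 in grey skin.

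SOCS3 (chromosome 4, 221202078 to 221206143, plus strand) encodes the suppressor that is induced by STAT3 and blocks the interleukin 6 receptor complex. It was at 7.26, 5.99 and 8.35 TPM in black skin and at 6.74, 1.69 and 24.6 TPM in grey skin. The 3 black libraries and grey replicate 1 lay close together, between 5.99 and 8.35 TPM, with grey replicate 2 below and grey replicate 3 above them, a range of 14.6-fold in all. The longest SOCS3 transcript was 2895 to 3121 nt in each library, and the gene rested on 168 to 3318 reads, more than IL1B, IL6 or PTGS2 in every library.

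NFKBIA (chromosome 3, 41208265 to 41212217, plus strand) encodes IκBα, which retains NF-κB in the cytoplasm. Summed TPM gave 54.5, 33.7 and 18.0 in black skin and 32, 38.0 and 57.6 in grey skin. The highest values, in black replicate 1 and grey replicate 3, were those of the libraries in which only a form of 880 nt was listed. In the other 4 libraries a last exon of 3356 to 3440 nt, starting at 41211629, lengthened the transcript to 4406 to 4470 nt. The 4 exons that all libraries shared (670 nt) had a coverage per aligned gigabase of 28.9, 27.6 and 20.1 in black skin and 25.9, 27.7 and 30.8 in grey skin. The fixed window put NFKBIA at 54.5, 48.4 and 35.3 TPM in black skin and at 47.4, 52.4 and 57.6 TPM in grey skin, a range of 1.63-fold in place of 3.19-fold. Grey replicate 3 stayed highest, but by 1.06-fold over the next library on either scale. In black replicate 1 a separate transcript of 15.6 TPM, not assigned to NFKBIA, covered positions 41212475 to 41215007 of the same region.

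TNFAIP3 (chromosome 7, 121767799 to 121788325, minus strand) encodes A20, the ubiquitin-editing enzyme that ends NF-κB signalling. It was at 5.93, 6.40 and 4.11 TPM in black skin and at 4.44, 9.80 and 6.57 TPM in grey skin. TNFAIP3 was the only member by summed TPM whose highest library was grey replicate 2, where the gene was assembled in 2 separate pieces. On the fixed window grey replicate 2 had 6.31 TPM and grey replicate 3 had 6.43 TPM, and the whole range was 4.10 to 6.43 TPM (1.57-fold). The pair of NF-κB inhibitors therefore varied least of the 7 members on that scale, by 1.57-fold for TNFAIP3 and 1.63-fold for NFKBIA, against 3.86-fold for IL1RN and 15.2-fold for SOCS3.

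**Figure D1:**
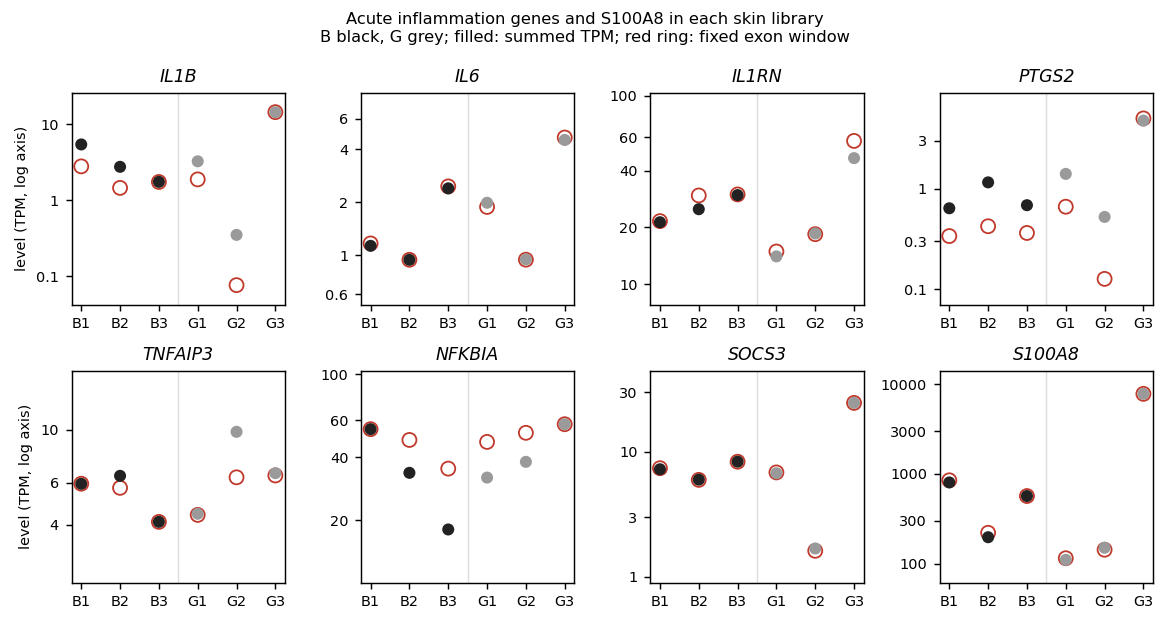
Level of each member and of S100A8 in each library (TPM, log axis; B, black and G, grey replicates 1 to 3; filled points, summed TPM; red rings, fixed exon window). Grey replicate 3 is highest for IL1B, IL6, IL1RN, PTGS2, NFKBIA, SOCS3 and S100A8 on both scales, whereas TNFAIP3 and NFKBIA span only 1.57-fold and 1.63-fold on the fixed window.

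Black and grey skin overlapped for all 7 members, and 0 of 7 had groups that did not overlap, on either scale (background 6.34% of 15588 genes by summed TPM and 5.55% of 14773 genes on the fixed window). Group means by summed TPM were 3.31 ± 1.90 in black and 6.0 ± 7.41 in grey for IL1B, 1.49 ± 0.795 and 2.49 ± 1.85 for IL6, and 0.830 ± 0.287 and 2.23 ± 2.24 for PTGS2 (SD, n = 3 each). They were 25.3 ± 4.20 TPM in black and 26.4 ± 17.6 TPM in grey for IL1RN, and 7.20 ± 1.18 and 11 ± 12 TPM for SOCS3. In these 5 genes the SD of the grey libraries was larger than that of the black ones, and grey replicate 3 held the highest value. NFKBIA averaged 35.4 ± 18.3 TPM in black and 42.5 ± 13.4 TPM in grey, and TNFAIP3 averaged 5.48 ± 1.21 and 6.93 ± 2.70 TPM.

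In a limma fit of log2(TPM + 1) over the 15588 genes whose mean reached 1 TPM, 3 genes were called at an adjusted p under 0.05, 2 higher and 1 lower in black (0.0192%), and 0 of the 7 members were among them. On the fixed window 0.0474% of genes were called, again with 0 of the 7 members. The members were chosen by the values that enter this fit, so the count is no test of them. As a description, the black minus grey difference in mean log2(TPM + 1) was −0.14 for IL1B, −0.40 for IL6, −0.61 for PTGS2, 0.11 for IL1RN, −0.25 for TNFAIP3, −0.35 for NFKBIA and 0.0064 for SOCS3. The median of the 7 differences was −0.25, beside 0.04 for all genes. Single grey libraries decided several of them. The difference for IL1B was 0.76 without grey replicate 3, whereas without grey replicate 2 it was −1.0. That of SOCS3 was 0.84 without grey replicate 3 and −0.79 when grey replicate 2 was left out instead.

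By summed TPM grey replicate 3 was the highest library for 6 of the 7 members, all but TNFAIP3, where 16.4% of all genes tested had their highest level in that library. On the fixed window it was the highest for 7 of 7 (background 19.3%). It was at least 2-fold above the median of the other 5 libraries for 5 of 7 members on both scales (background 4.29% by summed TPM and 3.1% on the fixed window). IL1B, PTGS2 and SOCS3, 3 of the 7, were at least 2-fold above the highest of the other libraries (0.68% and 0.562% of genes). These counts describe the pattern for which the genes were picked, and nothing is read from their distance to the background. By TPM the level in grey replicate 3 over the median of the other 5 libraries was 6.93 for PTGS2, 5.22 for IL1B, 4.01 for IL6, 3.65 for SOCS3, 2.19 for IL1RN, 1.71 for NFKBIA and 1.11 for TNFAIP3. The fixed window gave 13.8 for PTGS2, 8.28 for IL1B, 2.66 for IL1RN and 1.19 for NFKBIA. Reads per aligned gigabase, which are not divided by the assembled length, gave 42.7 for PTGS2 and 9.75 for IL1B, and the value for NFKBIA turned to 0.530, below the median of the other libraries. Grey replicate 2 stood at the other end for 3 of 7 members, IL1B, PTGS2 and SOCS3. It was their lowest library by summed TPM and on the fixed window (background 12.8% and 11.8%). In reads per aligned gigabase PTGS2 was instead lowest in black replicate 1, with 1.38 against 1.78 in grey replicate 2.

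**Figure D2:**
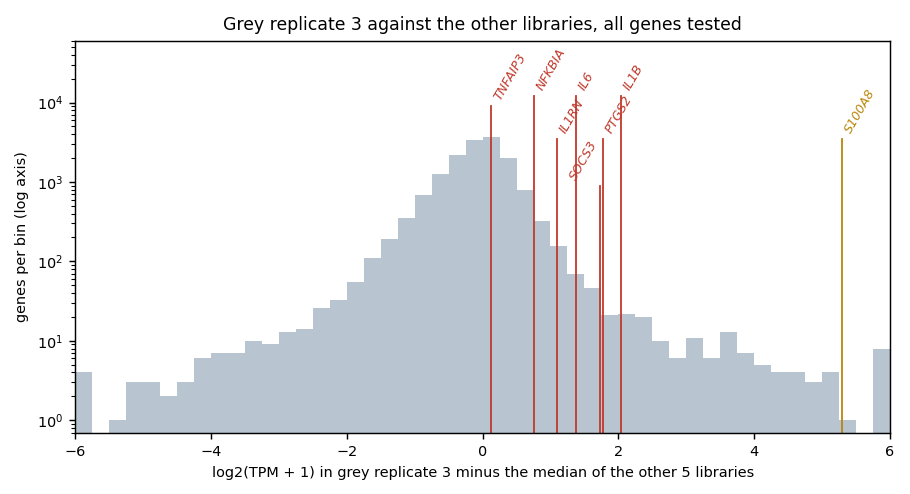
Histogram of the difference in log2(TPM + 1) between grey replicate 3 and the median of the other 5 libraries over 15588 genes (genes per bin on a log axis; the outermost bins also hold the genes beyond them). Red lines mark the members, from TNFAIP3 at 0.13 to IL1B at 2.03, and the gold line S100A8 at 5.30; the median of all genes is −0.04 and their 95th percentile 0.73.

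Against the other programmes of the same library, the members, the immediate early genes and the dermal matrix genes did not move alike. The summed level of the 7 members was 96.2, 75.9 and 65.0 TPM in black skin and 63.8, 69.9 and 159 TPM in grey skin. The 24 immediate early genes, transcription factors and signals switched on within minutes of a stimulus, summed to 954, 1402 and 866 TPM in black skin and to 1207, 830 and 1712 TPM in grey skin. Both sums were highest in grey replicate 3, but the next highest library was black replicate 1 for the members and black replicate 2 for the immediate early genes. NFKBIA made up 54.5 of the 96.2 TPM of the members in black replicate 1, where only its form of 880 nt was listed. The second place of that library rests on this value, so nothing is read from it. Of the 24 immediate early genes, 12 were highest in grey replicate 3 (background 16.4%). The 3 most abundant were CCN2, a matricellular signal, with 311, 678 and 256 TPM in black skin and 565, 232 and 831 TPM in grey skin, KLF4 and BTG2.

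The dermal matrix genes went the other way in that library. The 20 genes summed to 6172, 4875 and 7044 TPM in black skin and to 9218, 5078 and 2660 TPM in grey skin. Of the 20 genes, 18 were lowest in grey replicate 3 by summed TPM, under median-ratio scaling and on the fixed window alike (background 23.4% by summed TPM and 22% on the fixed window). The members were picked beside the matrix and immediate early levels. Nothing is therefore read from the distance of these lists to the background. SPARC, DCN and POSTN, the 3 most abundant, were at 937, 720 and 225 TPM there, against 1205 to 2828, 1188 to 2236 and 412 to 953 TPM in the other libraries. In grey replicate 3 the sum of the members was thus the highest of the 6 libraries and the sum of the matrix genes the lowest. Fibroblast markers had 7 of 8 and mast cell markers 3 of 4 genes at their lowest in grey replicate 3 (background 23.4%). The summed mast cell markers were at 29.1 TPM there, against 83.2 to 138 TPM elsewhere. Of 5 keratinocyte markers 3 were highest in grey replicate 3 (background 16.4%). The sum of the 5, 3245 TPM, lay just above the 1864 to 3236 TPM of the other libraries. Grey replicate 3 was also the deepest library and had the highest median ratio of 5′ to 3′ coverage, 0.705 against 0.649 to 0.678 elsewhere. The part of tissue make-up, depth and RNA quality in the members' levels was not tested.

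**Figure D3:**
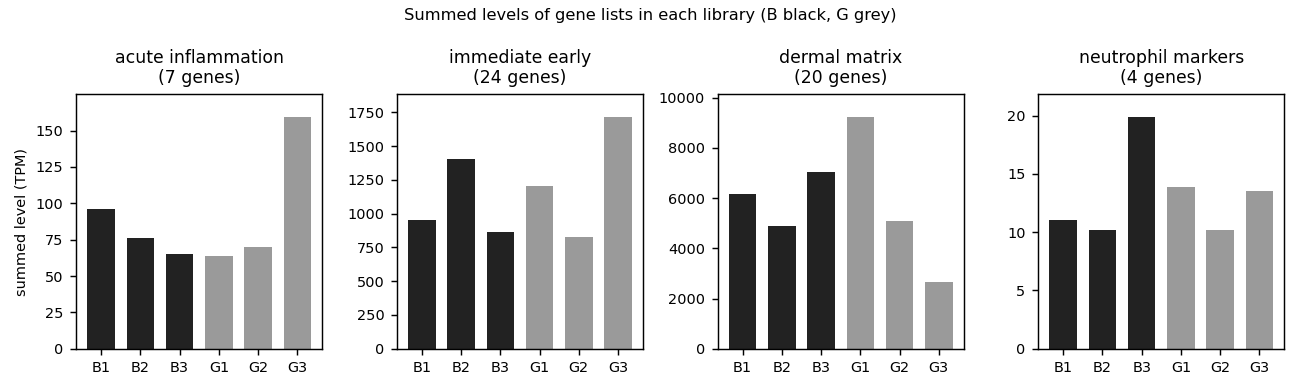
Summed TPM of the 7 members, 24 immediate early genes, 20 dermal matrix genes and 4 neutrophil markers in each library (B, black and G, grey replicates 1 to 3; bars start at 0). Grey replicate 3 has the tallest bar for the members (159) and the immediate early genes (1712), the shortest for the dermal matrix (2660), and a middling one for the neutrophil markers (13.5).

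The summed markers of leukocytes were not highest in the library where the members were. Of 15 neutrophil markers listed, 4 were named in the RefSeq table, and MPO and ELANE were not among them. The 4 genes summed to 13.5 TPM in grey replicate 3, within the 10.1 to 19.8 TPM of the other libraries. CSF3R, the receptor of granulocyte colony-stimulating factor, was highest in grey replicate 3, with 3.68 TPM there against 0.57 to 2.92 TPM. The 11 macrophage and dendritic cell markers summed to 429 TPM in grey replicate 3, and the other libraries to 398 to 861 TPM. Of those 11 genes, 0 were highest in grey replicate 3 by summed TPM and 1 on the fixed window (background 16.4% and 19.3%). For T and B cell markers the sum was 16.7 TPM in grey replicate 3 and 18.0 to 31.9 TPM elsewhere. The part of these cells in the members' levels was not tested.

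Within the interleukin 1 pathway the ligands and the decoy receptor diverged. IL1A, the ligand held ready in keratinocytes, was at 3.24, 3.16 and 2.48 TPM in black skin and 1.72, 1.40 and 4.69 TPM in grey skin. IL1R1, the signalling receptor, stayed within 16.8 to 25.1 TPM. IL1R2, the decoy receptor that binds interleukin 1 without signalling, was at 32.4, 26.6 and 19.5 TPM in black skin and 47.7, 47.6 and 9.56 TPM in grey skin. It was lowest in grey replicate 3, where IL1B, IL1A and IL1RN were highest. By summed TPM the ratio of IL1R2 to IL1R1 was 1.93, 1.06 and 0.841 in black skin and 2.30, 2.24 and 0.417 in grey skin. On the fixed window IL1R2 was at 20.9, 23.2 and 15.3 TPM in black skin and 21.6, 37.7 and 6.23 TPM in grey skin. IL1R1 stayed within 16.9 to 25.1 TPM on that scale. The high ratios of black replicate 1 and grey replicate 1 thus depended on the scale, whereas IL1R2 was lowest in grey replicate 3 on both. IL18R1 and MYD88, abundant members of the pathway, had 37.6 and 40.8 TPM in grey replicate 3 and 35.6 to 85.0 and 34.7 to 47.9 TPM elsewhere. Of the 15 other genes of the pathway, 2 were highest (background 16.4%) and 6 lowest (background 23.4%) in grey replicate 3. Between the colours 0 of them were called.

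Of the NF-κB subunits, NFKB1 varied by 1.70-fold and RELA by 1.53-fold over the 6 libraries, and NFKB2 stayed within 15.8 to 17.4 TPM. REL and RELB varied by larger factors. REL had its lowest level in grey replicate 1 (8.59 TPM) and its highest in black replicate 1 (20.8 TPM). For RELB the lowest library was black replicate 2 (4.57 TPM) and the highest was grey replicate 1 (9.97 TPM). NFKB1 was at 20.6, 20.7 and 22.3 TPM in black skin and 20.2, 13.2 and 21.4 TPM in grey skin, and RELA at 76.7, 54.3 and 50.3 TPM in black skin and 53.3, 52.9 and 67.5 TPM in grey skin. Of the 19 other subunits and regulators tested, 5 were highest in grey replicate 3 (background 16.4%). In that library 0 were 2-fold above the median of the others (background 4.29%). The most abundant were TAX1BP1, RELA and TNIP1, the first and last of which are partners of A20. Among 16 target cytokines, chemokines and adhesion genes, 5 were highest in grey replicate 3 (background 16.4%). Of the 16, 4 were at least 2-fold above the median of the other libraries there (background 4.29%). These 4, named after their values were seen, were MMP9, PLAU, PLAUR and ZC3H12A. MMP9, a matrix protease, was at 3.73, 1.31 and 3.4 TPM in black skin and 3.15, 0.909 and 11.3 TPM in grey skin, whereas ZC3H12A, an RNase that degrades cytokine transcripts, was highest in black replicate 1. CXCL12, SOD2 and TNFRSF1A led in abundance, and CXCL12, a stromal chemokine, was at 66.4 TPM in grey replicate 3 against 130 to 163 TPM elsewhere. TNF, the other classical inducer of NF-κB, was at 1.05, 1.93 and 2.67 TPM in black skin and 1.38, 0.377 and 1.71 TPM in grey skin, so it was not highest in grey replicate 3. In both lists 0 genes were called between the colours.

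The interleukin 6 and STAT3 pathway had its highest sum, 935 TPM, in grey replicate 3, against 628 to 769 TPM in the other libraries. There 8 of 20 genes were highest (background 16.4%), and 3 were at least 2-fold above the median of the other libraries (background 4.29%). The median gene of the list was only 0.13 above the other libraries in log2(TPM + 1), and CEBPD alone gave 278 TPM of the sum. IL6R, the ligand-binding receptor, was at 5.53, 4.45 and 5.18 TPM in black skin and 6.16, 3.84 and 13.7 TPM in grey skin, which is 2.22-fold above the next library. CEBPD, a transcription factor induced by STAT3, was at 142, 164 and 70.3 TPM in black skin and 101, 94.3 and 278 TPM in grey skin, and CEBPB reached 134 TPM in grey replicate 3 against 60.6 to 76.9 TPM. IL6ST, the shared signalling receptor gp130, was at 78.1, 39.8 and 75.0 TPM in black skin and 50.7, 76.3 and 45.6 TPM in grey skin, and its range of 1.96-fold shrank to 1.31-fold on the fixed window. STAT3 was highest in grey replicate 2 by summed TPM (150 TPM) but in grey replicate 3 on the fixed window (93.4 TPM, against 63.2 to 74.5 TPM elsewhere). Of the 20 genes of this list, 0 were called between the colours.

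The other genes of the prostaglandin pathway summed to 840 TPM in grey replicate 3, where PTGS2 was highest, and to 920 to 1048 TPM elsewhere. PTGS1, the constitutive cyclooxygenase, was at 12.7, 11.2 and 14.7 TPM in black skin and 6.52, 31.8 and 7.66 TPM in grey skin. On the fixed window it was highest in black replicate 1 and lowest in grey replicate 2. PTGES, which makes prostaglandin E, was at 12.6, 4.66 and 12.5 TPM in black skin and 5.64, 5.79 and 11.8 TPM in grey skin. ANXA1, PTGDS and PTGES3 were the most abundant of the list. Of its 18 genes 3 were highest (background 16.4%) and 7 lowest (background 23.4%) in grey replicate 3, and 0 were called between the colours. In that library 2 were at least 2-fold above the median of the other libraries (background 4.29%) and 3 at least 2-fold below it. The 5th percentile of all genes lay at −1.04 in log2(TPM + 1) against that median. Of 10 wound-associated genes listed, 4 were tested. EREG, an epidermal growth factor receptor ligand, was at 33.7 TPM in grey replicate 3 and 14.3 to 23.0 TPM elsewhere. In that library 3 of the 4 genes were highest (background 16.4%), AREG among them and TGFA not.

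**Figure D4:**
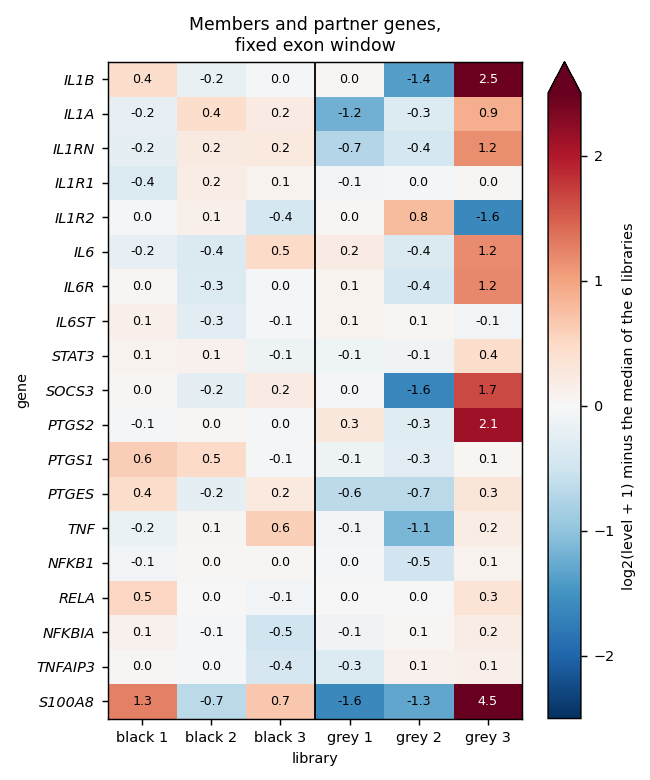
Members and partner genes on the fixed exon window, as log2(level + 1) minus the median of the 6 libraries (rows, genes; columns, black then grey libraries; numbers, the plotted values, with the colour scale ending at ±2.5). IL1B (2.5), PTGS2 (2.1) and S100A8 (4.5) stand out in grey replicate 3, where IL1R2 is at −1.6, and SOCS3 ranges from −1.6 in grey replicate 2 to 1.7 in grey replicate 3.

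The genes whose levels followed the members most closely were sought over the 6 libraries among 11955 genes with a symbol. The measure was Pearson's r to the mean of the members' standardized log2(TPM + 1) values, which was 1.39 in grey replicate 3 and −0.50 to −0.01 in the other libraries. With a single library so far from the rest, r mainly records which genes were also high there, and 52 genes had an r above 0.95. The nearest were LIPE, RAVER2, VKORC1L1, BAHD1 and DICER1 (r = 0.995 to 0.987). LIPE, hormone-sensitive lipase, was at 7.90, 8.03 and 7.18 TPM in black skin and 7.44, 7.04 and 13.5 TPM in grey skin. Among the 3 genes nearest to each member, CLCF1, a cytokine of the interleukin 6 family, came first for SOCS3 (r = 0.994), and ANGPTL4, a secreted inhibitor of lipoprotein lipase, was among the nearest to PTGS2 (r = 0.988). IL1B was nearest to PRUNE1 (r = 0.990), IL6 to SMS (r = 0.995), IL1RN to NOL11 (r = 0.992), NFKBIA to BCL2L1 (r = 0.994) and TNFAIP3 to PAOX (r = 0.996).

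The assembled transcripts of TNFAIP3 also differed in structure, a property that the choice of genes did not use. An exon of TNFAIP3 ending at 121771697 on chromosome 7 was listed in 2 forms in each library, starting at 121771501 or 15 nt inside it at 121771516. The long form took 65.1%, 72.4% and 70.7% of the exon's coverage in black skin and 49.1%, 51.6% and 61.9% in grey skin. All 3 black libraries were above all 3 grey ones, with means of 69.4% ± 3.8 and 54.2% ± 6.76 (SD, n = 3 each). The difference of 15.2 percentage points had an exact 2-sided permutation p of 0.1, which is the smallest that 3 against 3 libraries allow (n = 3 each). The exon was noticed after its values were seen. Any 2 groups of 3 libraries that do not overlap give this p, so it is no test of the exon. Among 579 exons listed in all libraries with 2 ends at most 30 nt apart, 7.94% had colours that did not overlap, and 8.98% had a difference at least as large.

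**Figure D5:**
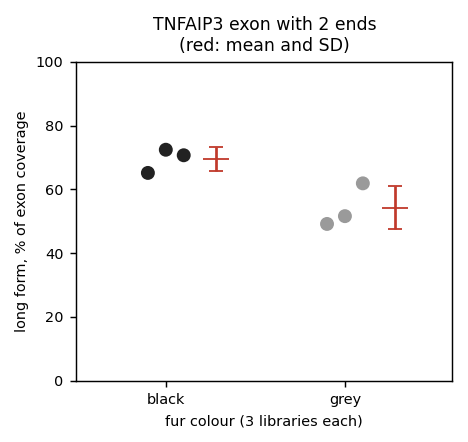
Share of the long form in the coverage, as assigned to assembled transcripts, of the TNFAIP3 exon with 2 ends (per cent, axis from 0 to 100; points, libraries; red, mean and SD of 3 libraries). The black libraries lie at 65.1% to 72.4% and the grey libraries at 49.1% to 61.9%.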

How the data were processed

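Poly(A)-enriched, strand-specific libraries of 6 ear punches were sequenced as single reads of 120 bp. Per the submitters' processing notes and file headers, the authors trimmed reads with Trim Galore (0.6.10), mapped them with HISAT2 (2.2.1) and assembled transcripts per library with StringTie (2.2.0). The deposited files give coverage, FPKM and TPM per transcript, which are normalized signal values and not counts. Coverage over FPKM gave aligned bases, and coverage times length over 120 bp gave reads.

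Transcripts were assigned to RefSeq genes (mTriVul1.pri) by exon overlap on the same strand, otherwise by gene name (656 of 274079). The gene table gives spans without exons or strand, so both were inferred from assembled transcripts matching each span, which departs from the plan. RefSeq genes took 81.5% to 89.4% of the TPM of a library. TPM was summed per gene and is 0 where no transcript was assembled, which can mean too few reads.

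Colours were compared with limma (3.58.1, R 4.3.3, mean-variance trend) on log2(TPM + 1), a scale that understates changes of low genes, for genes averaging 1 TPM or more, and p-values were adjusted by Benjamini and Hochberg's method with a threshold of 0.05. The fit was tested on simulated data. The fixed exon window used exon bases assembled in at least 5 libraries (3 where these made under 200 bases) and was added after seeing the data. Window bases that a library did not assemble count as 0 in it. Other alternatives were pseudocounts, filters, scalings, a variance model, a replicate block, multi-exon transcripts, name-based assignment and leaving out each library. Named genes were the members, fixed partner genes, the 3 most abundant genes of each list and the genes nearest by r. The members and lists were chosen with earlier results of these data known. The labels number the replicates without saying how they were taken, so p-values measure only the spread between these samples.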

Additional observations from a re-analysis of the deposited data

How the results depend on the processing

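The 3 genes called between the colours were FAHD1 and SOX15 (higher in black) and LOC118852226 (lower), none of them a member and named after their values were seen. The number called was 1 with a filter at a mean of 5 TPM, 0 with the replicate block, 0 with assignment by gene name alone (487 genes tested), 7 on the fixed exon window (3 of them shared) and 0 to 3 when each replicate was left out in turn (1 without black replicate 1 or 3, and 0 without grey replicate 1 or 2). Of the 3 genes, 1 was among those called without grey replicate 3 and 0 were among those called without any other single library, including the 3 called without black replicate 2. Apart from the smaller number of genes tested by name, the cause was not tested. With pseudocounts of 0.1 and 0.5 TPM, no filter, other scalings, no trend and multi-exon transcripts it was 2 to 3. Same-numbered black and grey libraries did not deviate together (correlations of −0.02, 0.02 and −0.05 over all genes), so the block pairs samples by number alone. The sign of the members' black minus grey difference turned under at least 1 alternative for IL1B, IL6, NFKBIA, SOCS3 and IL1RN, and under none for PTGS2 and TNFAIP3. PTGS2 fell below the filter without grey replicate 3 and has no value there. The NFKBIA difference moved to −1.49 with assignment by name. The excess of grey replicate 3 over the median of the others was 8.23 for IL1B with multi-exon transcripts and 2.89 for IL1RN in reads per aligned gigabase. Outside grey replicate 3, PTGS2 rested on 7.93 to 26.3 reads per library, so the order of those 5 libraries is loosely set.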
